A study of Mus musculus with 12 samples.

Results

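The core circadian clock is a set of 10 genes here: Arntl (also called Bmal1), Clock, Per1, Per2, Per3, Cry1, Cry2, Nr1d1, Nr1d2 and Dbp. They were taken by symbol from a table of 24736 genes, and all 10 were listed and passed the filter on low counts, as did 18060 genes in all. The samples were hippocampi of 4-month-old male mice, namely 3 mice transgenic for APP/PS1 (APPswe and PSEN1dE9, disease-linked forms of the amyloid precursor protein and presenilin 1) and 3 wild-type (WT) littermates. Each mouse gave 1 stranded total RNA library. The promoter that drives the transgenes, the mouse strain, the light cycle and the hour at which tissue was taken are not given by the sources used here.

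The clock is a transcriptional feedback loop that runs in nearly every cell with a period of about a day. The proteins ARNTL and CLOCK pair up and switch on genes that carry E-boxes, among them the Per, Cry and Nr1d genes and Dbp. PER and CRY proteins then enter the nucleus and repress that pair. The nuclear receptors encoded by Nr1d1 and Nr1d2, known as REV-ERB alpha and beta, repress Arntl, Clock and Cry1 through ROR elements, and the transcription factor DBP acts on D-boxes such as those of the Per genes. In mouse tissues outside the master clock of the suprachiasmatic nucleus, Arntl and Clock transcripts are high around the change from dark to light and Cry1 late in the dark phase. Those of Dbp, the Nr1d genes and the Per genes are high in the light phase and around the change from light to dark. Arntl, Clock and Cry1 are called the morning-phase members here. The other 7, the weakly rhythmic Cry2 among them, are called the evening-phase members.

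Promoter windows of 300 bases, running from 250 bases before a transcript's start to 50 bases after it, were listed by RefSeq (build GRCm38.p6) for 9 of the 10 members. Per2 was not matched. The windows below show where letters of the elements used by the loop occur in these genes, printed 5′ to 3′ on the gene's strand. Capitals mark an E-box (CACGTG), an E′-box (CACGTT or its reverse complement AACGTG), a D-box (TTATGTAA or TTACGTAA) or a ROR element (TAGGTCA or TGGGTCA), searched on both strands. Ciart, an E-box-driven repressor that is no member, is shown because it had the same lowest and highest library as Dbp.
Per1 (chr11:69098699-69098998, plus strand): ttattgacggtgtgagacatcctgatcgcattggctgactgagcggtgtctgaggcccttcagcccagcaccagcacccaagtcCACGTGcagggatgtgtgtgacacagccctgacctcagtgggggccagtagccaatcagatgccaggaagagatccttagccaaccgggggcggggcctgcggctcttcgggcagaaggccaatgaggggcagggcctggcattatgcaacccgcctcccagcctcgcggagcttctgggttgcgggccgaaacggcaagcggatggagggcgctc
Per3 (chr4:151044616-151044915, minus strand): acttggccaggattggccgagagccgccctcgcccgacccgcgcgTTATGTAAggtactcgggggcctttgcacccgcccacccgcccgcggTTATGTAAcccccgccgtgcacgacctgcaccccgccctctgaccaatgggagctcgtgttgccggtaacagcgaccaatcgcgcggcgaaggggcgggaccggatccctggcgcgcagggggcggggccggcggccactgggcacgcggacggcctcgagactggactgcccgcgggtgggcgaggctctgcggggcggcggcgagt
Cry1 (chr10:85185005-85185304, minus strand): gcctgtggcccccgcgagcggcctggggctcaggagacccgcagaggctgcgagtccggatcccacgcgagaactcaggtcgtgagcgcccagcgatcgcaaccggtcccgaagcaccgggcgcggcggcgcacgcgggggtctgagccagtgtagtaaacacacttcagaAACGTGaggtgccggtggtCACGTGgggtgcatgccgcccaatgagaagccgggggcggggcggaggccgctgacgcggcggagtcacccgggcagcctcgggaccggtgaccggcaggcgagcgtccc
Nr1d1 (chr11:98775328-98775627, minus strand): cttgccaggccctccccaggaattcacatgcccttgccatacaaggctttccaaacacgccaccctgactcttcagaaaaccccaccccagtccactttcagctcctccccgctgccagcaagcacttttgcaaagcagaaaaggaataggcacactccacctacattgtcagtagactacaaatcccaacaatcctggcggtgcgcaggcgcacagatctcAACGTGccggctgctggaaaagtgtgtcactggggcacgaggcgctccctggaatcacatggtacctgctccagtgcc
Arntl (chr7:113207261-113207560, plus strand): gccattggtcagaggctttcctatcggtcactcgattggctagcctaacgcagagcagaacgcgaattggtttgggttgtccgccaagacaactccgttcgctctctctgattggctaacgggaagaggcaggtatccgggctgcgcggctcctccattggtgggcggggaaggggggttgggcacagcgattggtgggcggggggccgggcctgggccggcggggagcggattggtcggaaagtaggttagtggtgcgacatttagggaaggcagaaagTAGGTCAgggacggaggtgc
Ciart (chr3:95882179-95882478, minus strand): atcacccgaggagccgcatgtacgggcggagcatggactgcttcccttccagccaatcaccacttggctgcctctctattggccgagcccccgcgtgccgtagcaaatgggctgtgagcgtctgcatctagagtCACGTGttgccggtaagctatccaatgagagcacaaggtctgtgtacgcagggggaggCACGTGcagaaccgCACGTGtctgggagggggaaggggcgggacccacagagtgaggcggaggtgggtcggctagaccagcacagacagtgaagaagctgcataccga

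Gene IDs and positions below were matched by symbol to RefSeq's annotation of GRCm38.p6, the assembly behind the build mm10 that the submitters' processing notes name. In these windows the Per1 E-box began 166 bases before the start, and the Per3 window held 2 D-boxes, at 205 and 158 bases before it. Cry1 held an E′-box and an E-box, 79 and 60 bases before the start. Nr1d1 had an E′-box 28 bases before its start, and Arntl a ROR element 30 bases past its start. Ciart held 3 E-boxes, 116, 58 and 44 bases before its start. Of all 32851 windows in the table, 7.15% held an E-box, 4.68% an E′-box, 1.06% a D-box and 6.45% a ROR element. Cry2 also had an E′-box, 166 bases before its start. None of these letters occurred in the windows of Clock, Nr1d2 or Dbp, which says nothing about sites elsewhere in those genes.

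The libraries summed to 120958765 to 134147448 estimated counts in APP/PS1 mice and 123759886 to 146904552 in WT mice. App stood at 2948 to 3465 CPM (estimated counts relative to library size, after TMM scaling) in APP/PS1 libraries and 1522 to 1580 CPM in WT libraries. APP/PS1 replicate 3 stood apart from the rest. Its log2 level lay more than 1 away from the mean of the other 5 libraries for 11% of genes, against 4.23% to 4.68% for each other library. The 5 cerebellar marker genes that passed the filter summed to 1566 CPM in that library, to 5.25 and 6.66 CPM in APP/PS1 replicates 1 and 2, and to 7.24 to 9.02 CPM in WT. Gabra6, a cerebellar granule cell gene removed by the filter, had 38654 estimated counts there and 0 to 40 in each of the others. The 8 hippocampal markers summed to 613 CPM in it, 862 and 1002 CPM in the other 2 APP/PS1 libraries, and 891 to 962 CPM in WT libraries. Of the hypothalamic markers, Avp reached at most 0.633 CPM in any library, Oxt 0.259, Six6 0.244 and Pmch 0.231, while Vip, which hippocampal interneurons also express, was at 8.19 to 17.7 CPM. Fold changes are therefore given with and without APP/PS1 replicate 3. That library was the highest for 4 members, Arntl, Clock, Cry1 and Nr1d2, and the part of its cerebellar markers in those values was not tested.

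Arntl and Clock, the activating pair, varied little in WT mice. Arntl (gene ID 11865, chr7:113178471-113314126) stood at 48.7, 42.1 and 54.0 CPM in APP/PS1 replicates 1, 2 and 3, against 42.5, 44.1 and 44.6 CPM in WT replicates 1, 2 and 4. Its APP/PS1 values spanned the WT range on both sides. Clock (gene ID 12753, chr5:76209868-76305603) stood at 199, 176 and 239 CPM in APP/PS1 replicates 1, 2 and 3, against 181, 178 and 185 CPM in WT replicates 1, 2 and 4. For both genes APP/PS1 replicate 3 was the highest library and APP/PS1 replicate 2 the lowest, so the groups overlapped. The log2 fold change of APP/PS1 over WT was 0.14 (SE 0.10) for Arntl and 0.18 (SE 0.12) for Clock. Without APP/PS1 replicate 3 it was 0.05 for each, with 95% intervals from -0.16 to 0.25 for Arntl and from -0.13 to 0.22 for Clock.

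Npas2, which can take the place of Clock in the forebrain, ran the other way in the library that stood apart. It stood at 46.2, 44.6 and 25.7 CPM in APP/PS1 replicates 1, 2 and 3, against 48.5, 49.6 and 53.0 CPM in WT. All APP/PS1 values lay below all WT values, most of the difference being in replicate 3. Its log2 fold change was -0.38 (SE 0.22), and -0.15 (SE 0.07) without that library.

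**Figure D1:**
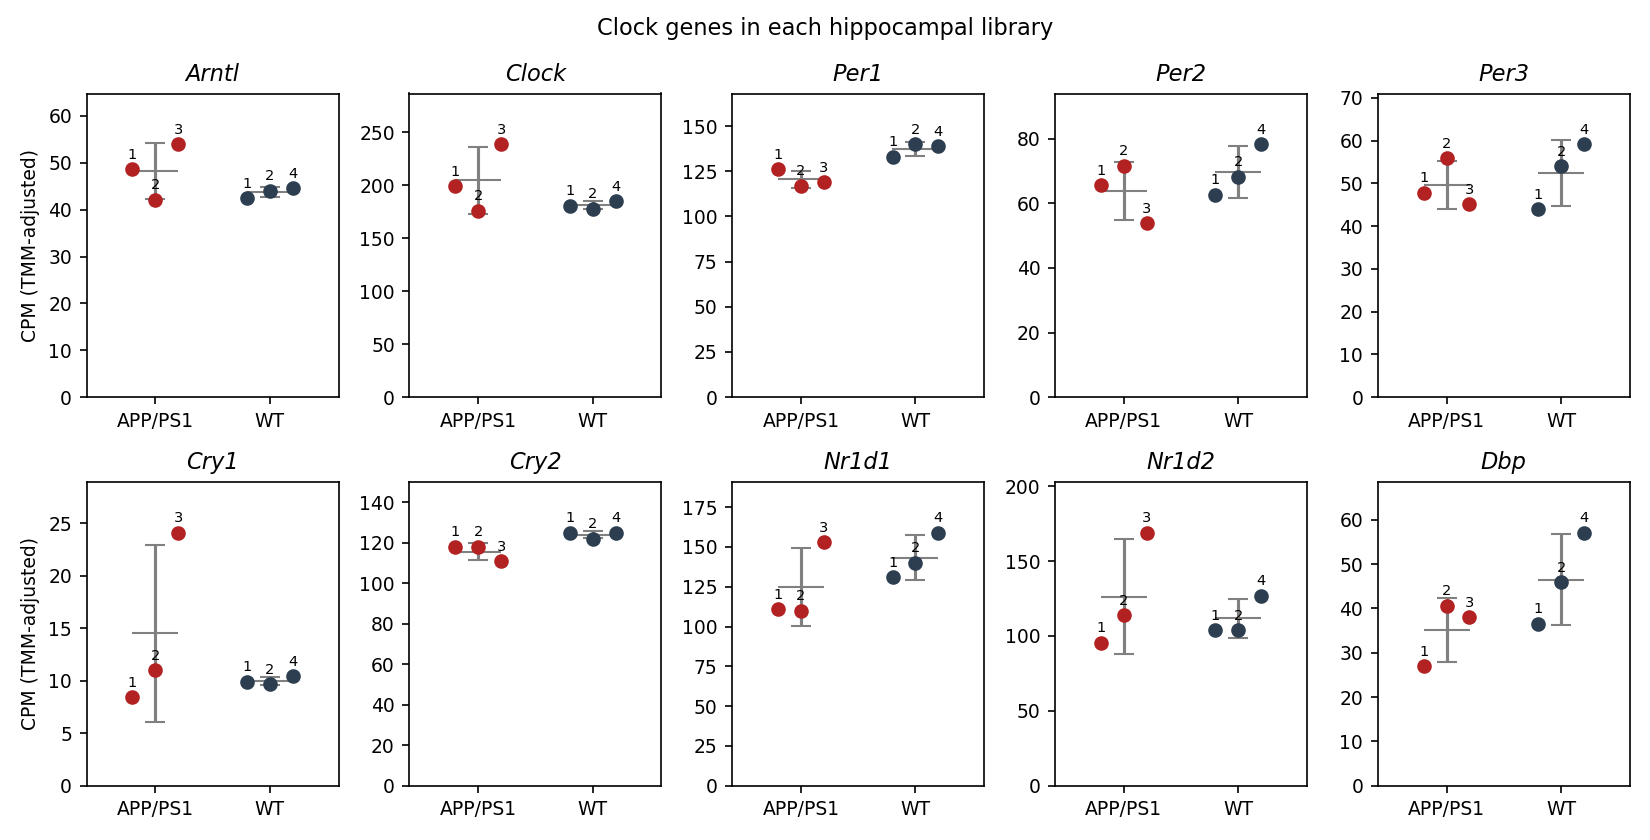
TMM-adjusted CPM (vertical axes, from 0) of the 10 clock genes in each library, APP/PS1 left and WT right. Points carry the replicate number of the labels, and grey bars give the mean and SD of 3 libraries. Cry1 stands out in APP/PS1 replicate 3 at 24.1 CPM, and Dbp spans 26.9 to 57.1 CPM over the 6 libraries.

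Among the Per genes, which encode the rhythmic repressors, Per1 had the narrowest spread. Per1 (gene ID 18626, chr11:69095108-69109965) stood at 126, 117 and 119 CPM in APP/PS1 replicates 1, 2 and 3, against 133, 140 and 139 CPM in WT replicates 1, 2 and 4. The groups did not overlap, with APP/PS1 lower. It averaged 121 ± 4.64 CPM for APP/PS1 against 137 ± 4.13 CPM for WT (SD, n = 3 each) and gave a log2 fold change of -0.19 (SE 0.07) with a 95% interval from -0.35 to -0.02. Per1 did not pass over all genes, with an adjusted p of 0.887 from edgeR (0.563 to 0.995 under the other settings), and the value without APP/PS1 replicate 3 was -0.18 (SE 0.06).

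Per2 and Per3 overlapped between the genotypes. Per2 (gene ID 18627, chr1:91415977-91459351) stood at 65.6, 71.6 and 53.9 CPM in APP/PS1, against 62.6, 68.2 and 78.3 CPM in WT, in the same library order. Per3 (gene ID 18628, chr4:150997018-151044707), the least needed of the 3 for rhythm, stood at 47.8, 55.9 and 45.1 CPM in APP/PS1, against 44.0, 54.0 and 59.2 CPM in WT. Within WT mice both were highest in replicate 4 and lowest in replicate 1, by 1.25-fold for Per2 and 1.35-fold for Per3. The log2 fold change between genotypes was -0.13 (SE 0.13) for Per2 and -0.08 (SE 0.14) for Per3, each no larger than its error. Without APP/PS1 replicate 3 it was -0.03 (SE 0.11) for Per2 and -0.02 (SE 0.14) for Per3.

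The cryptochrome genes, whose proteins partner PER, had unlike spreads. Cry1 (gene ID 12952, chr10:85131700-85185054) stood at 8.42, 11 and 24.1 CPM in APP/PS1 replicates 1, 2 and 3, against 9.90, 9.66 and 10.4 CPM in WT. Its value in APP/PS1 replicate 3 was 2.2 times the next highest library. The log2 fold change was 0.54 (SE 0.37) with all libraries and -0.05 (SE 0.14) without replicate 3, so its sign turned. Cerebellar markers stood at 1566 CPM in that library, and their part in the Cry1 value was not tested. Of all genes tested, 6.39% lay at least as far from the other libraries in replicate 3 as Cry1 did. Cry2 (gene ID 12953, chr2:92403646-92434085) stood at 118, 118 and 111 CPM in APP/PS1, against 125, 122 and 125 CPM in WT. Its groups did not overlap, and the means of 116 ± 3.99 CPM for APP/PS1 and 124 ± 1.5 CPM for WT (SD, n = 3 each) gave a log2 fold change of -0.10 (95% interval -0.26 to 0.06), or -0.08 (SE 0.05) without APP/PS1 replicate 3.

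The REV-ERB genes overlapped between the genotypes. Nr1d1 (gene ID 217166, chr11:98767932-98775377) stood at 111, 110 and 153 CPM in APP/PS1 replicates 1, 2 and 3, against 131, 140 and 159 CPM in WT replicates 1, 2 and 4. APP/PS1 replicates 1 and 2 lay below all WT libraries, while replicate 3 lay among them. The log2 fold change was -0.20 (SE 0.15), or -0.38 (SE 0.09) without replicate 3, and -0.12 with any of APP/PS1 replicate 1, APP/PS1 replicate 2 or WT replicate 4 left out. Nr1d2 (gene ID 353187, chr14:18204056-18239106) stood at 95.4, 114 and 169 CPM in APP/PS1, against 104, 104 and 127 CPM in WT. It was highest in APP/PS1 replicate 3, and its log2 fold change was 0.18 (SE 0.22) with that library and -0.10 (SE 0.12) without it.

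Dbp (gene ID 13170, chr7:45705100-45710203), the clock's output factor with a wide daily swing in mouse tissues, had the widest spread among WT mice of all 10 members. It stood at 26.9, 40.6 and 38.0 CPM in APP/PS1 replicates 1, 2 and 3, against 36.5, 45.9 and 57.1 CPM in WT replicates 1, 2 and 4. APP/PS1 replicate 1 was the lowest library and WT replicate 4 the highest, 2.12-fold apart, and the groups overlapped. Within WT alone the spread was 1.56-fold, a coefficient of variation of 22.2%, against a median of 5.56% over the 10616 genes with a mean of at least 8 CPM. Arntl, Clock, Per1, Cry1 and Cry2 lay below that median, at 1.21% to 3.8%. Per2, Per3, Nr1d1 and Nr1d2 lay above it, at 9.74% to 14.8%. The share of genes with a coefficient as large as that of Dbp was not computed. In WT replicate 4, 9.65% of all genes lay at least as far from the other libraries as Dbp, and 9.4% in APP/PS1 replicate 1. Dbp averaged 35.2 ± 7.26 CPM for APP/PS1 against 46.5 ± 10.3 CPM for WT (SD, n = 3 each) and gave a log2 fold change of -0.40 (SE 0.21). Its 95% interval ran from -0.91 to 0.10, and without APP/PS1 replicate 3 the fold change was -0.47 (SE 0.23). It was smaller with either extreme library left out, at -0.24 without APP/PS1 replicate 1 and at -0.23 when WT replicate 4 was dropped.

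**Figure D2:**
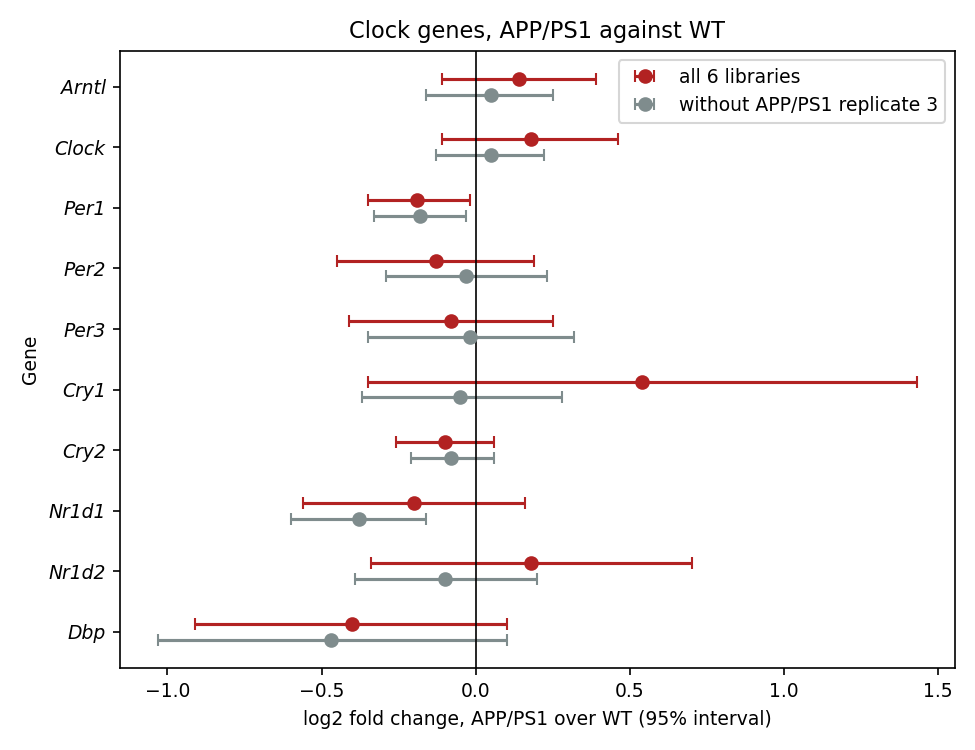
Log2 fold change of APP/PS1 over WT (horizontal axis) with 95% intervals from edgeR's quasi-likelihood fit for each clock gene, for all 6 libraries (red) and without APP/PS1 replicate 3 (grey). Cry1 and Nr1d2 change side of 0 when that library is left out, and Per1 is at -0.19 with it and -0.18 without it.

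Over all genes, 0 of the 10 members passed edgeR's test at an adjusted p under 0.05, where the share of all 18060 genes was 0.00554%. DESeq2 and limma-voom also called 0 of the 10, with backgrounds of 0.117% and 0.00554%. The adjusted p from edgeR was 0.887 to 0.911 for the members. Without APP/PS1 replicate 3, edgeR called 0 of the 10 and 0.0273% of all genes. At an unadjusted p under 0.05, 1 of the 10 members was reached, Per1, against 3.42% of all genes. Without APP/PS1 replicate 3 there were 2, Per1 and Nr1d1, against 4.03% of genes. Every APP/PS1 library lay below every WT library for 2 of the 10 members, Per1 and Cry2, where the background was 4.76%, and for Npas2 of the 26 other clock genes below. The opposite arrangement held for 0 members, with a background of 5.63%, and for Sirt1 of the other clock genes. With APP/PS1 replicates 1 and 2 alone, 3 members lay below all WT libraries, Nr1d1 being the third, where the background was 9.37%. Of the log2 fold changes, 4 were positive and 6 negative, with a median of -0.09, beside a median of 0.01 over all genes tested. Without APP/PS1 replicate 3 they were 2 and 8, with a median of -0.06.

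Morning-phase and evening-phase genes were then set against each other within each library. The phase contrast is the mean log2 CPM of the 7 evening-phase members minus that of the 3 morning-phase members, with the WT mean set to 0. It does not depend on a library's size factor. A lower value means evening-phase transcripts lower relative to morning-phase ones. It was -0.27, -0.11 and -0.73 in APP/PS1 replicates 1, 2 and 3, and -0.12, 0.0079 and 0.11 in WT replicates 1, 2 and 4. WT replicate 4 lay at the evening end, and APP/PS1 replicates 3 and 1 at the morning end. APP/PS1 replicate 2 and WT replicate 1 lay side by side, so the genotypes overlapped. The mean was -0.37 ± 0.32 in APP/PS1 and 0 ± 0.12 in WT (SD, n = 3 each), and -0.19 in APP/PS1 without replicate 3. No p is given, since the members were chosen with results of these data known.

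The phase groups did not contribute alike in the libraries at the morning end. In APP/PS1 replicate 3 the mean of the morning-phase members was 0.66 above the WT mean, Cry1 above all, while that of the evening-phase members was at -0.07. On that scale Cry1 was at 1.27, Clock at 0.40 and Arntl at 0.30. In that library 6.39% of all genes lay at least as far from the other libraries as Cry1. The share was 39.9% for Clock and 50.2% for Arntl. The evening-phase members were split there, with Nr1d2 at 0.61, Nr1d1 at 0.10 and the others between -0.37 and -0.16. Npas2, which can take the place of Clock, was at -0.97. In APP/PS1 replicate 1 the morning-phase mean was at 0.02 and the evening-phase mean at -0.25, led by Dbp. That morning-phase mean joined members of opposite sign, with Arntl at 0.155, Clock at 0.14 and Cry1 at -0.25. The difference of Dbp from Arntl alone, on the same scale, was -0.92, -0.12 and -0.57 in APP/PS1 replicates 1, 2 and 3 and -0.28, -0.0082 and 0.29 in WT replicates 1, 2 and 4. With Cry1 and Cry2 left out the contrast was -0.43 in APP/PS1 replicate 1 and -0.41 in replicate 3. With further genes of each phase added it was -0.24 in APP/PS1 replicate 1 and -0.38 in replicate 3. With medians in place of means, APP/PS1 replicate 1 was lowest at -0.37, and replicate 3 was at -0.30. APP/PS1 replicate 2 was then at 0.05, above WT replicates 1 and 2 at -0.04 and -0.10. Cerebellar markers, at 1566 CPM in APP/PS1 replicate 3 and at most 9.02 CPM elsewhere, moved with the contrast in that library, and their part in the result was not tested. In a bulk sample, fewer cells of a type and less RNA per cell cannot be told apart. The contrast orders libraries by means over genes of known phase, and whether the hour of collection set that order was not tested.

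**Figure D3:**
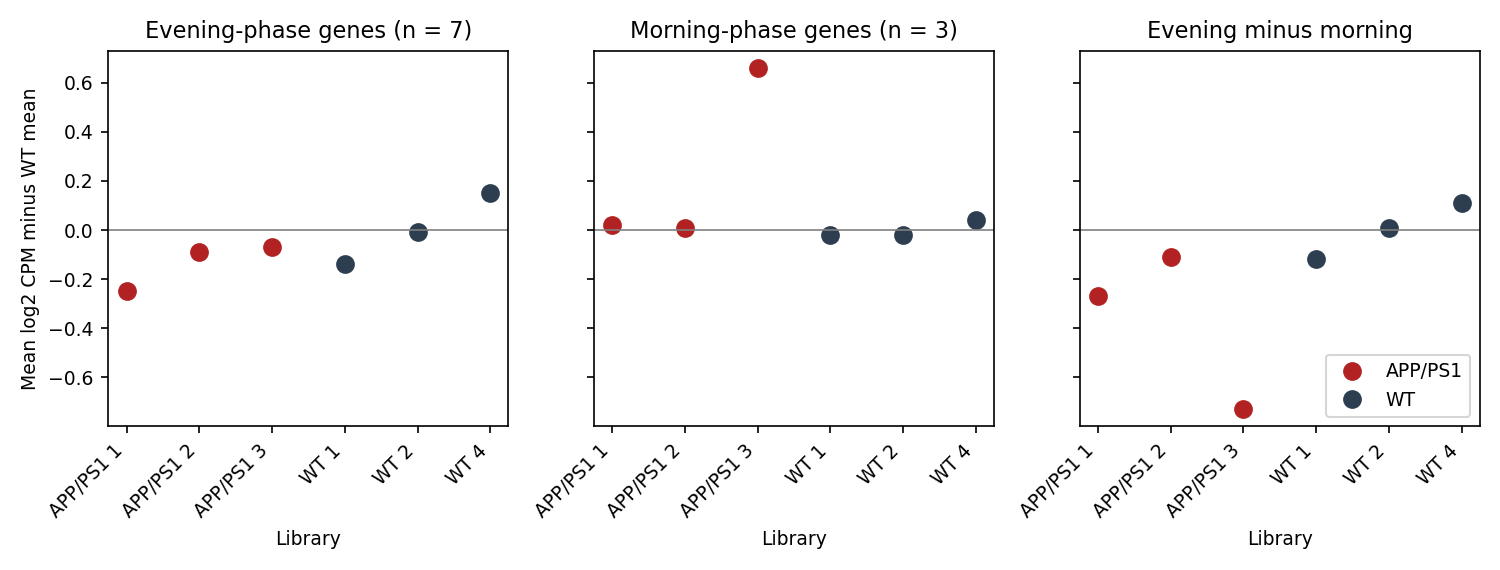
Mean log2 CPM of the evening-phase members, the morning-phase members and their difference (vertical axis, WT mean set to 0) in each library (horizontal axis), APP/PS1 in red and WT in dark blue. The morning-phase mean is at 0.66 in APP/PS1 replicate 3 and between -0.02 and 0.04 elsewhere, while the evening-phase mean runs from -0.25 in APP/PS1 replicate 1 to 0.15 in WT replicate 4.

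The evening-phase members were often high in the same animals of a genotype. Among the WT libraries, replicate 4 was highest for 5 of the 7 evening-phase members and replicate 1 lowest for 5. Replicate 4 was also the highest WT library for the morning-phase Arntl, Clock and Cry1, at 44.6, 185 and 10.4 CPM. High values in replicate 4 were thus not particular to the evening-phase members, and the share of all genes with that order was not computed. In APP/PS1, replicate 2 exceeded replicate 1 for 5 of the 7, by 1.51-fold for Dbp, 1.2-fold for Nr1d2 and 1.17-fold for Per3. It did so by 1.31-fold for the morning-phase Cry1 too, while Arntl and Clock were lower in replicate 2 than in replicate 1. Over the 5 libraries without APP/PS1 replicate 3, 20 of the 21 pairs of evening-phase members had a positive correlation. Over all 6 libraries the count was 16 of 21. With the genotype means removed it was 17 of 21 over the 5 libraries and 12 of 21 over all 6. Pairs of a morning-phase with an evening-phase member were negative in 14 of 21 with either set of libraries, and in 11 of 21 with either set once the genotype means were removed. Of the 3 pairs of morning-phase members, all 3 were positive over 6 libraries, but only 1 was without APP/PS1 replicate 3, since Cry1 then ran against both Arntl and Clock. Over those 5 libraries Cry1 had a positive correlation with every evening-phase member but Per1 (-0.14), at 0.80 with Nr1d2 and 0.72 with Dbp. These counts describe 5 or 6 libraries, share the same libraries and size factors, and carry no test. The share of positive pairs over all genes was not computed, so the counts have no background beside them. Markers of other tissue parts differed between the same animals. In WT replicates 1, 2 and 4 the 7 neocortical markers summed to 380, 473 and 548 CPM and the 8 myelin markers to 3989, 3007 and 2691 CPM. The 8 choroid plexus markers summed to 1815 CPM in APP/PS1 replicate 1 and 4067 CPM in APP/PS1 replicate 2. Their part in the shared order of the evening-phase members was not tested. Arntl and Clock varied by only 1.05-fold and 1.04-fold among the WT mice.

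The wider clock pathway was followed in 26 further genes, of which 0 passed edgeR's test, 0 DESeq2's and 0 limma-voom's, and 0 had an edgeR unadjusted p under 0.05. Their log2 fold changes were positive for 11 and negative for 15, and their median was -0.02 both with and without APP/PS1 replicate 3. Among evening-phase genes outside the core, Ciart stood at 8.55, 10.3 and 11.1 CPM in APP/PS1 replicates 1, 2 and 3, against 10.1, 11.9 and 13.9 CPM in WT replicates 1, 2 and 4. Like Dbp it was lowest in APP/PS1 replicate 1 and highest in WT replicate 4. Hlf, a relative of Dbp that binds the same D-boxes, stood at 169, 196 and 177 CPM in APP/PS1, against 186, 212 and 242 CPM in WT. Bhlhe41, an E-box repressor, stood at 41.5, 51.1 and 51.2 CPM in APP/PS1, against 44.8, 51.7 and 56.0 CPM in WT. These 3 genes thus had the same lowest and the same highest library as Dbp. The share of all genes with that order was not computed. Genes outside the clock had it too, among them Cirbp, at 13.0 and 21.4 CPM in those 2 libraries. So did the neocortical markers Cux2, at 37.2 and 53.4 CPM, and Cplx3, at 2.93 and 10.2 CPM, while the other neocortical markers did not. Tef, the third factor of that family, had a narrower range, from 241 to 266 CPM for APP/PS1 and from 255 to 270 CPM in WT.

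**Figure D4:**
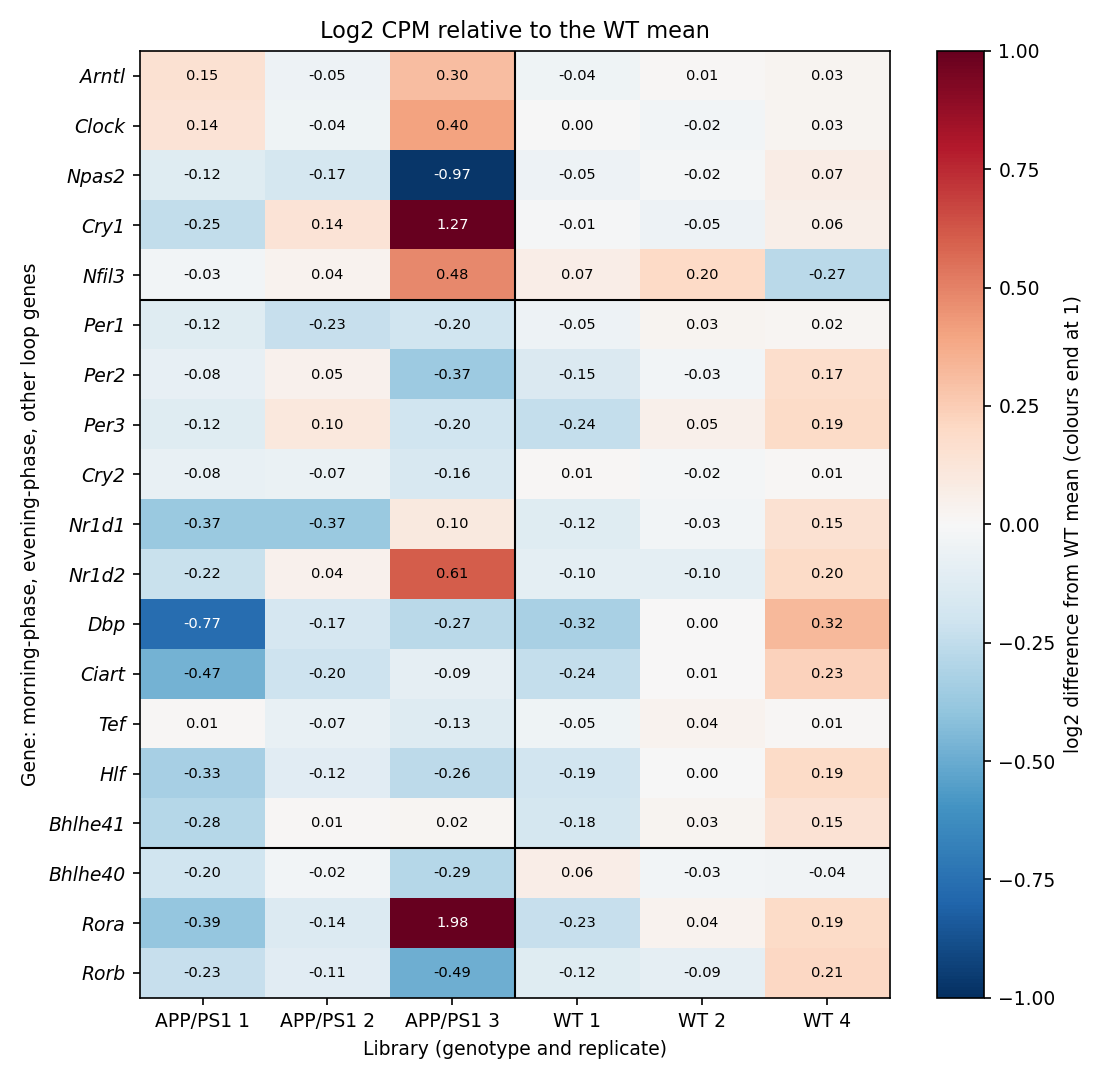
Log2 CPM minus the WT mean for the 10 members and 9 further loop genes (rows, grouped as morning-phase, evening-phase and other) in each library (columns). Dbp, Ciart, Hlf and Bhlhe41 are lowest (blue) in APP/PS1 replicate 1 and highest (red) in WT replicate 4, and Cry1 and Rora exceed 1 in APP/PS1 replicate 3.

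Of the activators acting through ROR elements, Rora stood apart in the library with cerebellar markers. Rora, an activator of Arntl that is abundant in cerebellar Purkinje cells, stood at 75.9, 90.0 and 392 CPM in APP/PS1 replicates 1, 2 and 3, against 84.5, 102 and 113 CPM in WT. Rorb did not stand apart there, with 37.2% of all genes at least as far from the other libraries. It was at 57.0, 61.8 and 47.7 CPM in APP/PS1, against 61.5, 62.9 and 77.4 CPM in WT. The part of the cerebellar markers in these values was not tested. The log2 fold change of Rora was 0.90 (SE 0.62), and -0.27 (SE 0.14) without replicate 3. That of Rorb was -0.28 (SE 0.13), and -0.18 (SE 0.12) without replicate 3. Nfil3, a D-box repressor opposed to Dbp, stood at 10, 10.5 and 14.3 CPM in APP/PS1, against 10.7, 11.7 and 8.49 CPM in WT. It was lowest in WT replicate 4, where Dbp was highest, but it was not high in APP/PS1 replicate 1, where Dbp was lowest.

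Bhlhe40, the paralogue of Bhlhe41, stood at 121, 136 and 114 CPM in APP/PS1, against 145, 136 and 135 CPM in WT. Its log2 fold change was -0.17 (SE 0.09), or -0.11 without APP/PS1 replicate 3. Of the remaining genes, Sirt1, a deacetylase that acts on clock proteins, stood at 22.3, 23.9 and 34.0 CPM in APP/PS1, against 20.8, 19.9 and 22.1 CPM in WT. Fbxw11, a ubiquitin ligase subunit that targets PER proteins, had a fold change on the log2 scale of 0.24 (SE 0.14), and 0.08 (SE 0.08) without APP/PS1 replicate 3. For Timeless these were 0.52 (SE 0.34) and 0.09 (SE 0.23). For Csnk1e, a kinase that marks PER proteins for breakdown, they were -0.14 (SE 0.09) and -0.09 (SE 0.07).

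Per1 is also an early target of neuronal activity and of glucocorticoids, so genes of those responses were followed. Of 14 immediate early genes 13 were lower on average in APP/PS1, and the median log2 fold change was -0.45, or -0.27 without APP/PS1 replicate 3, and 0 passed edgeR's, DESeq2's or limma-voom's test. At an edgeR unadjusted p under 0.05 there were 4 of the 14, where the share of all genes was 3.42%. The 7 neocortical markers were lower on average too, all 7 of them, with a median log2 fold change of -0.50, or -0.26 without APP/PS1 replicate 3. They summed to 390, 395 and 238 CPM in APP/PS1 libraries and to 380, 473 and 548 CPM in WT libraries, and their part in the immediate early gene values was not tested. Egr1, an activity-induced transcription factor, stood at 184, 195 and 114 CPM in APP/PS1, against 220, 259 and 252 CPM in WT, with no overlap. Egr4 stood at 15.1, 12.6 and 8.17 CPM in APP/PS1, against 21.1, 22 and 14.8 CPM in WT. Of 16 glucocorticoid-responsive genes 11 were negative and 5 positive, with a median of -0.06 and 0 past any of the 3 tests, while 1 of the 16 had an edgeR unadjusted p under 0.05, near the share of all genes. The gene of smallest p was Plin4, at 27.2, 27.8 and 29.8 CPM in APP/PS1, against 32.0, 32.8 and 32.0 CPM in WT. Mt2, a metallothionein, stood at 64.6, 62.1 and 82.6 CPM in APP/PS1, against 82.8, 87.7 and 77.8 CPM in WT. Summed over the list, immediate early genes stood at 820, 768 and 489 CPM in APP/PS1, against 893, 1009 and 963 CPM in WT, without overlap. Of single genes, 4.76% had every APP/PS1 library below every WT library. The sum was lowest in APP/PS1 replicate 3, and Per1 in replicate 2, at 117 CPM against 119 CPM in replicate 3. The part of the immediate early genes in the Per1 difference was not tested.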

How the data were processed

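Stranded total RNA libraries of 6 hippocampi (TruSeq kit, Illumina HiSeq, per the labels' protocols) were quantified by the authors, and the deposited table holds estimated counts per gene. HISAT2, StringTie, DESeq and build mm10 are named in the submitters' processing notes, with no role or version. Low values were unevenly used (3 occurred 897 times, 4 occurred 1817, 5 occurred 1346, 6 occurred 624 and 8 occurred 1201), so 1 fragment may stand for several estimated counts. Dividing by 4 was an alternative. The small RNA libraries were not used.

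The estimated counts, already whole numbers, were filtered by expression, scaled by TMM and fitted with edgeR 4.0.16 (quasi-likelihood test, R 4.3.3) as APP/PS1 against WT. The p-values were adjusted by Benjamini-Hochberg over all 18060 genes, with a threshold of 0.05, and limma 3.58.1 (voom) and DESeq2 1.42.0 were alternatives. Intervals are 95% intervals of the fit. Log2 CPM used a prior count of 2. On simulated data, 47 of 100 genes changed 2-fold and 85 of 100 changed 4-fold were recovered. Transcript lengths were not used here, so levels are not compared between genes.

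The members and gene lists were chosen with earlier results of these data known. All 10 members were named, with 9 other loop genes by role (1 more is not reported here), 4 further clock genes by smallest p, and the 2 genes of smallest p in each list of a related response. Libraries are separate animals per the labels. For the pairs of numbers 1 and 2 the deviations from the group mean had correlations of 0.09 and -0.04.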

Additional observations from a re-analysis of the deposited data

How the results depend on the processing

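No member and none of the 26 other clock genes passed at an adjusted p under 0.05 in any setting run. Of the members' log2 fold changes, 77 of 80 under other settings and 57 of 60 with 1 library left out kept direction and side of the threshold. For the 13 other named clock genes these were 101 of 103 and 75 of 78, and Timeless was not kept by the filter of 10 CPM. With the replicate block, possible for numbers 1 and 2 only, the sign turned for Per2 (0.07), Per3 (0.09), Cry1 (-0.02), Nfil3 (-0.13) and Rora (-0.17). The same-number correlations of deviations from the group mean were 0.09 and -0.04, and those of differently numbered pairs ran from -0.08 to 0.07. With 3 libraries per group they cannot show whether same-numbered animals were handled together, and no label says that they pair. Leaving out 1 library gave -0.19 to 0.02 for Per3, -0.05 to 0.82 for Cry1, -0.10 to 0.35 for Nr1d2, -0.16 to 0.01 for Bhlhe41, -0.01 to 0.27 for Nfil3 and -0.27 to 1.28 for Rora. The count over all genes was 1 in edgeR, 24 with DESeq2, 2 with the replicate block and 0 to 6 with 1 library left out. Leaving out WT replicate 1 or 2 gave 0 and WT replicate 4 gave 4, while dropping APP/PS1 replicate 1 gave 6 and APP/PS1 replicate 3 gave 5. Apart from the block and the reduced samples, the cause was not tested. The difference in phase contrast was -0.50 to -0.19 with 1 library left out, -0.20 with medians, -0.23 with wider gene sets, -0.29 without Cry1 and Cry2 and -0.32 without Dbp. The biological coefficient of variation was 26.5%, or 19.7% without APP/PS1 replicate 3. In the simulation 47 of 100 genes changed 2-fold were called, and smaller changes, such as those of all 10 members, were not simulated.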

Other observations

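Genes that respond to body temperature, which also follows the day, were listed because Cirbp and Rbm3 are cold-induced RNA-binding proteins with daily rhythms in mice. Cirbp stood at 13.0, 19.0 and 20.6 CPM in APP/PS1 replicates 1, 2 and 3, against 16.3, 20.0 and 21.4 CPM in WT replicates 1, 2 and 4. Rbm3 stood at 26.6, 50.5 and 49.7 CPM in APP/PS1, against 36.5, 37.8 and 41.1 CPM in WT. Both were lowest in APP/PS1 replicate 1, as Dbp was, and overlapped between the genotypes. Of the 9 genes listed, which also take in chaperones such as Hspa5, 8 were higher on average in APP/PS1. Among all 18060 genes tested 9451 were. Since the list mixes cold-induced genes with chaperones, this count gives no direction of temperature. The median log2 fold change was 0.07, and 0 passed edgeR's main test. Hspa5, the chaperone of the endoplasmic reticulum, stood at 280, 313 and 292 CPM in APP/PS1, against 198, 196 and 220 CPM in WT, without overlap. Its log2 fold change was 0.53 (SE 0.08), with an adjusted p of 0.887 in edgeR and, over the other settings, of 5.0e-04 to 0.991. Hspa1b, an inducible heat shock protein, stood at 20.8, 17.4 and 15.0 CPM in APP/PS1, against 17.0, 10.5 and 11.9 CPM in WT.

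Among 9980 genes, those whose log2 CPM followed the phase contrast most closely over the 6 libraries were Rpl27, Tox, Atpif1, Chchd6 and Fam124a, with Pearson's r of 0.997 to 0.994. Of the genes searched, 418 had r above 0.9, so these 5 are a description of 6 points, which share the library that stood apart. A further search, over the 5 libraries without APP/PS1 replicate 3, was added after seeing the data. Its first 5 genes were Rxfp1, Chchd6, Ciart, Chsy3 and Phka1, with r of 0.999 to 0.995. Of these only Ciart is among the clock genes followed here, and it was not among the first 5 over all 6 libraries. In this search 234 of the 9980 genes had r above 0.9, so it too is a description only.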
